A study of Acromyrmex echinatior with 18 samples.

Results

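Of the 17229 RNA editing sites found in heads of Acromyrmex echinatior, a leaf-cutting ant, 5220 (30.3%) were A-to-G changes that lay in no annotated gene or transposable element and stood in a row with other A-to-G changes. They were chosen by 3 conditions. The change was A-to-G, the annotation of the site named neither coding sequence, UTR, intron nor transposable element (TE), and another A-to-G site lay on the same scaffold and strand within 50 bases. Of the 6504 A-to-G sites without annotation, 80.3% had such a neighbour, and the other 1284 are called isolated here.

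The study compared RNA of small workers, large workers and gynes (females that can become queens) from 3 colonies, Ae322, Ae356 and Ae363, written here as A, B and C. Each RNA library was made from heads of 1 caste of 1 colony, pooled from 200 small workers, 50 large workers or 50 gynes, and DNA of the bodies was sequenced alongside, which gave 9 RNA and 9 DNA libraries. No treatment was given, and all colonies were field-collected and then kept in the laboratory. Since heads were pooled, replicates show how colonies vary and not how single ants do, and differing cell makeup of the heads cannot be told apart from differing editing within cells.

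In A-to-I editing, ADAR enzymes bind double-stranded RNA and convert adenosine to inosine, which appears as G in sequence reads. Long and nearly perfect duplexes, for example those formed by inverted repeats, are known to be edited at many adenosines at once, while short imperfect hairpins are edited at few. Clusters of edited sites in untranslated RNA are common in animals, and in fruit flies ADAR acts mainly in the nervous system. The sequence around the ant sites was not analysed here.

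The 5220 clustered sites lay on 273 scaffolds, 2428 on the plus strand and 2792 on the minus strand. Joining A-to-G sites with gaps of at most 50 bases put them in 1330 clusters. In 1249 of these clusters every site was without annotation. The other 81 also held 263 annotated sites, of which 244 lay in a TE only and 19 in a gene. Scaffold 70 held the most clustered sites (120 in 21 clusters), ahead of scaffolds 244 and 39 with 112 each, and the 10 richest scaffolds held 18.6% of them.

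Most clusters were small and dense. The median cluster had 3 sites within 17 bases and the largest had 76 within 726 bases. Clusters of 2 sites made up 39.8% of the 1330, those of 3 to 5 made up 40.7%, those of 6 to 10 made up 15.1%, and 12 clusters had over 20 sites. Neighbouring sites of a cluster were a median of 5 bases apart (quartiles 1 and 12.25, 3888 gaps), and 26.0% of the gaps joined adjacent bases. The size classes were close to those of clusters elsewhere: clusters of 2 made up 38.3% of clusters with TE sites outside genes and 38.2% of clusters with genic sites.

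**Figure D1:**
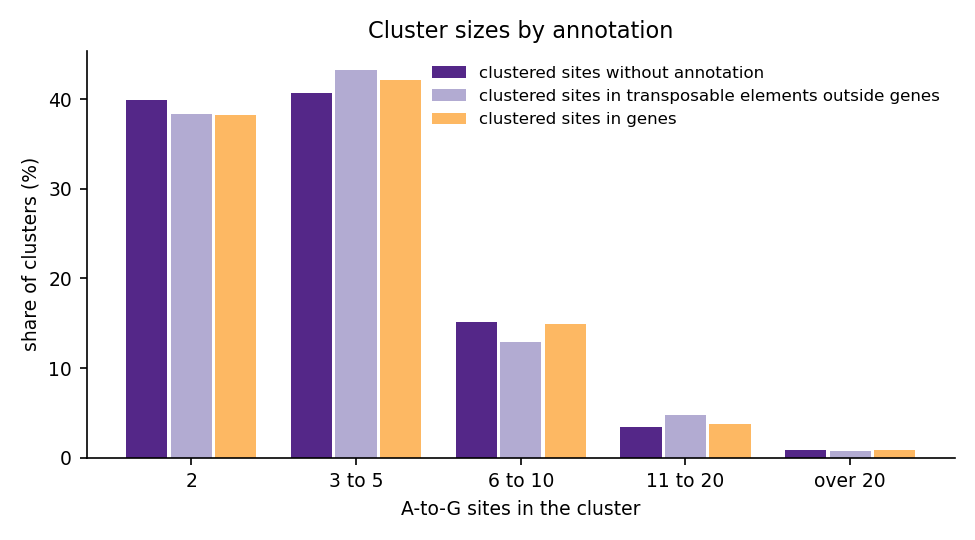
Share of clusters (y axis, percent, from 0) by the number of A-to-G sites they hold (x axis), for clusters with clustered sites without annotation, with sites in transposable elements outside genes and with sites in genes. The 3 kinds have similar bars, with about 80% of the clusters in the classes of 2 and of 3 to 5 sites.

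An A-to-G site on the opposite strand within 50 bases was found for 299 clustered sites (5.73%), against 55 isolated sites (4.28%). In TEs outside genes the share was 8.08%, and in genes it was 6.96%. A change of another kind on the same strand lay within 50 bases of 20 clustered sites (0.383%).

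RNA reads over the clustered sites numbered 250117, 277958 and 221704 in small workers of colonies A, B and C, 187962, 110915 and 119009 in large workers, and 154407, 145862 and 127759 in gynes. The small worker libraries were thus the deepest, and the authors marked more of the sites as edited in them: 4156, 4336 and 3934 in small workers, 3852, 2606 and 2859 in large workers, and 3032, 2840 and 2769 in gynes. A mark in all 9 libraries was found for 957 sites (18.3%), and 161 had a mark in 1 library. All 3 small worker libraries and no other carried the mark at 50 sites, against 6 sites for large workers and 5 for gynes. The small worker libraries had the most reads and the most marks, and the part of depth in these counts was not tested.

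Editing levels, the share of reads with the edited base, were tested where a site had at least 10 RNA reads in all 9 libraries. This held for 1697 of the 5220 clustered sites (32.5%) in 397 clusters, at a median depth of 52.1 reads. The other 3523 had a median of 8.78 reads, and 1244 of them lacked reads in at least 1 library.

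Clustered sites were edited at a median level of 8.67% over the 9 libraries (quartiles 4.53% and 18.7%, 1697 sites). Of them 97 (5.72%) reached 50%, and 489 (28.8%) were below 5%. Isolated sites were lower, with 54.9% of 235 below 5%. Averaged over sites in each library, the level was 15.2% at clustered and 7.15% at isolated sites, a difference of 8.08 ± 0.764 percentage points (SD over 9 libraries), higher in 9 of 9 libraries (exact two-sided sign-flip test, p = 0.00390625, the smallest it allows). The difference was 7.63 points among sites with 10 to 30 reads per library, 7.67 with 30 to 100 and 8.35 above 100. By the median over sites it was 4.22 points (exact sign-flip p = 0.00390625). With each colony counted once, the exact sign-flip test gave p = 0.25 and could not go lower. Each library measures the same sites, so these p values do not cover the spread among clusters.

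Sites in clusters of 6 or more had higher levels than sites in clusters of 2. Cluster size counts only the sites that were found, and the part of this in the difference was not tested. Sites in clusters of 6 or more averaged 16.7%, against 10.8% in clusters of 2, a difference of 5.83 ± 0.816 points (SD over 9 libraries) that was above 0 in 9 of 9 libraries (exact two-sided sign-flip test, p = 0.00390625, and 0.25 over the 3 colonies). These were 1031 sites of 138 clusters and 206 sites of 112 clusters. They were the same in each library, so the sign-flip p does not cover the spread among clusters. The difference was 2.95 points at 10 to 30 reads per library, 7.12 at 30 to 100 and 4.05 above 100. It was 3.56 points at a coverage minimum of 5 reads (exact sign-flip p = 0.00390625).

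Within a cluster, levels spread widely. In the 228 clusters with at least 3 tested sites, the highest and the lowest site lay a median of 24.7 points apart (quartiles 11.4 and 48.9), with a median of 28.9% at the highest and 3.28% at the lowest. The median SD among sites of a cluster was 10.1 points, as large as the SD of the cluster means, which was also 10.1 points. Tested neighbours 1 to 5 bases apart differed by a median of 6.93 points (729 pairs) and their levels correlated with r = 0.374. At 6 to 20 bases r was 0.0767 (429 pairs), and at 21 to 50 bases it was -0.0266 (113 pairs). These r describe pairs of sites that share reads and carry no test.

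The castes differed in order. Mean levels at the 1697 clustered sites were 17.2%, 17.1% and 17.7% in small workers of colonies A, B and C, 16.0%, 14.8% and 14.7% in large workers, and 13.6%, 12.9% and 13.1% in gynes. The 3 castes did not overlap. Small workers averaged 17.3% ± 0.288, large workers 15.2% ± 0.719 and gynes 13.2% ± 0.368 (SD, n = 3 each). Small workers were 4.11 points above gynes, large workers 1.97 points above gynes, and small workers 2.14 points above large workers. Each exact two-sided permutation test gave p = 0.1, the smallest that 3 against 3 allows, and each difference had the same sign in 3 of 3 colonies (small workers minus gynes 3.55 to 4.57 points, large workers minus gynes 1.66 to 2.39, small minus large workers 1.16 to 2.91). Among tested clustered sites that the authors marked in all 9 libraries, where no library lacks the mark, small workers were 6.34 points above gynes. Every clustered site carried a mark in at least 1 of these same libraries. A mark in any small worker library was found for 5079 sites, in any large worker library for 4508 and in any gyne library for 4281. The part of this choice of sites in the caste differences, and in the site and cluster calls below, was not tested.

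The order was not particular to clustered sites without annotation. Isolated sites averaged 8.45% ± 0.432 in small workers, 7.18% ± 0.461 in large workers and 5.81% ± 0.219 in gynes (SD, n = 3 each). Clustered TE sites outside genes had 20.5%, 18.0% and 15.6% in the same order of castes, and clustered genic sites 18.3%, 15.5% and 13.3%. The gap between small workers and gynes was 1.47 points wider at clustered than at isolated sites (4.11 against 2.64, exact permutation p = 0.1, the smallest possible). As a ratio it was narrower, 1.31 against 1.46, with a log2 difference of -0.15 (exact permutation p = 0.1), so its direction depends on the scale.

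**Figure D2:**
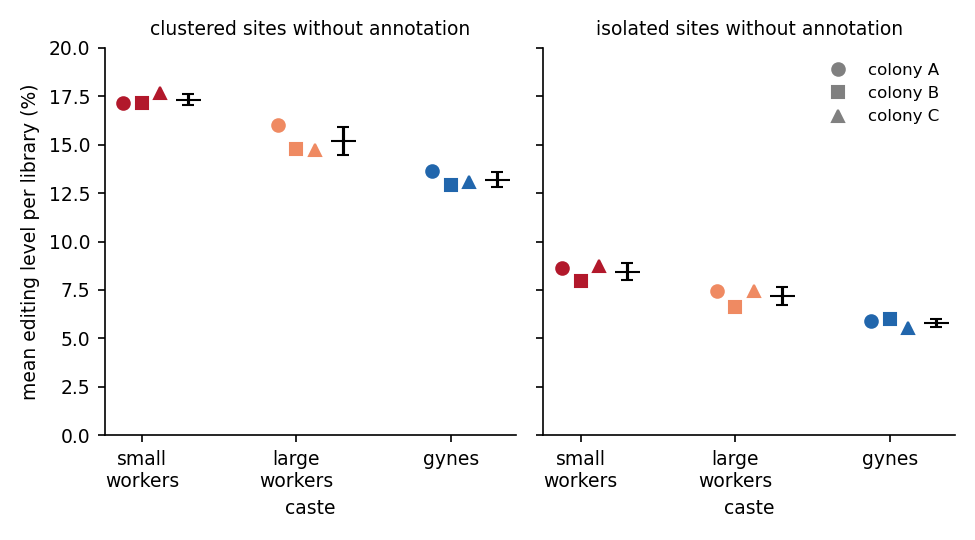
Mean editing level per library (y axis, percent, from 0) by caste (x axis) at clustered (left) and isolated (right) sites without annotation. Each point is 1 library, its shape the colony, and the bar is the mean ± SD of 3 libraries. The small workers lie above the large workers and the large workers above the gynes in the left panel, at 17.3%, 15.2% and 13.2%.

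The order of the caste means held in each size class. In clusters of 2 the levels were 12.8% ± 0.332 in small workers, 10.3% ± 1.15 in large workers and 9.45% ± 1.09 in gynes (SD, n = 3 each). In clusters of 6 to 10 they were 19.4% ± 0.366, 16.9% ± 1.08 and 14.5% ± 0.585. In clusters of 11 to 20 they were lower than that, 17.9% ± 0.461, 15.8% ± 0.608 and 13.7% ± 0.421. In clusters over 20 sites, 10 of which had tested sites, they were 19.0% ± 0.754, 17.6% ± 0.726 and 16.5% ± 1.19. The gap between small workers and gynes was 2.51 points there, against 4.29 points in the other clusters. That comparison was chosen after the values were seen, and its exact permutation test gave p = 0.3. In clusters of 2 and in those over 20 sites, large workers and gynes differed by less than the SD of the gynes.

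The direction was the same at most single sites. Small workers exceeded gynes in mean level at 1264 of the 1697 clustered sites (74.5%), against 74.6% of all 5720 tested sites. The 3 small worker levels all lay above the 3 gyne levels at 378 clustered sites (22.3%, against 22.0% of all tested sites) and all below at 25 (1.47%, against 1.61%). In a quasi-binomial model with Benjamini-Hochberg adjustment over all tested sites, 131 clustered sites differed between small workers and gynes (7.72%, against 8.23% of all tested sites), 128 higher (background 8.09%) and 3 lower (background 0.140%) in small workers. They lay in 70 clusters, and their median difference was 13.9 points. The model uses 1 dispersion for all sites, and 65 of the 131 had a larger dispersion of their own. With colony as a replicate block it called 0 clustered sites (268 unadjusted at 0.05), a limma fit of arcsine-square-root levels also called 0 (297 unadjusted), and relative to each library's overall shift 26 were called, 24 of them among the 131. Leaving out any 1 of the 9 libraries left between 14 calls (without small workers of colony C) and 59 (without large workers of colony B).

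The largest differences among called sites whose levels did not overlap were led by position 109613 of scaffold 274, plus strand (assembly Aech_2.0), in a cluster of 4 sites. It was edited at 83.7%, 88.6% and 72.7% in small workers of colonies A, B and C, 90.5%, 47.1% and 80.0% in large workers and 33.3%, 50.0% and 40.0% in gynes (10 to 49 reads, small workers against gynes adjusted p = 0.00122, quasi-binomial model). Large workers spread over both other castes.

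Position 556992 of scaffold 344, minus strand, in a cluster of 12, had 48.5%, 61.7% and 64.0% in small workers, 35.9%, 32.3% and 33.3% in large workers and 23.3%, 18.4% and 22.2% in gynes (quasi-binomial adjusted p = 0.000789 for small workers against gynes). Here the 3 castes did not overlap. Position 319851 of the same strand, in a cluster of 14 sites, was called between small workers and both other castes, with 81.1%, 76.8% and 70.8% in small workers, 56.7%, 39.4% and 63.3% in large workers and 41.1%, 42.1% and 56.9% in gynes (49 to 132 reads, quasi-binomial adjusted p = 1.95e-07 against gynes and 0.00886 against large workers).

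The other 5 of the 8 largest were 1089028 of scaffold 121, 636350 of scaffold 436, 678570 of scaffold 116, 94717 of scaffold 166 and 173947 of scaffold 244, with small workers 29.9 to 36.3 points above gynes. At 94717 of scaffold 166, 2890 bases downstream of a 3' UTR site of the gene for Mitogen-activated protein kinase-binding protein 1, gynes had 5.71%, 3.85% and 0%, against 25.5%, 31.0% and 50.0% in small workers. At 173947 of scaffold 244, 2155 bases downstream of a 3' UTR site of DIP2, levels were 93.2%, 77.3% and 87.0% in small workers and 67.6%, 37.0% and 63.2% in gynes.

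Of the 3 called sites that were lower in small workers, 1 had no overlap. Position 394351 of scaffold 344, minus strand, in a cluster of 11, had 7.5%, 7.5% and 2% in small workers, 15.2%, 0% and 7.69% in large workers and 44.4%, 20% and 30.8% in gynes (13 to 50 reads, quasi-binomial adjusted p = 0.0225 for small workers against gynes). It lay 3886 bases upstream of an intronic site of Shab, a voltage-gated potassium channel. Gynes stood above both worker castes there.

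Between large workers and gynes, 10 clustered sites were called (0.589%, against 0.472% of all tested sites), 8 higher (background 0.437%) and 2 lower (background 0.0350%) in large workers. Of the 10, 7 had a dispersion of their own above the one used by the model. The firmest was 709160 of scaffold 21, plus strand, with 363 to 941 reads per library. It had 43.8%, 36.8% and 35.5% in large workers and 22.02%, 22.4% and 21.9% in gynes (quasi-binomial adjusted p = 6.67e-11), and 40.5%, 39.2% and 46.3% in small workers. Both worker castes lay above gynes there.

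At 40401 of scaffold 399, large workers had 38.8%, 30% and 21.6% and gynes had 3.33%, 10.1% and 11.1% (quasi-binomial adjusted p = 0.00891). The other 4 named increases were at 425918 of scaffold 31, 3987365 of scaffold 99, 101718 of scaffold 178 and 300963 of scaffold 614, by 7.3 to 10.1 points. Position 3987365 of scaffold 99 lay under 1000 bases downstream of a 3' UTR site of Pxd, a peroxidase, and 101718 of scaffold 178 lay 2533 bases downstream of an intronic site of lute, annotated as BTB/POZ domain-containing protein 3.

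Lower in large workers was 352374 of scaffold 465, plus strand, 5979 bases downstream of a 3' UTR site of Rdl, a subunit of GABA-gated chloride channels. It had 7.91%, 6.97% and 5.44% in large workers and 11.9%, 13.1% and 13.9% in gynes (281 to 1389 reads, quasi-binomial adjusted p = 0.0149), with small workers at 9.22%, 8.76% and 9.45%. The castes did not overlap, and this order, gynes above small workers above large workers, is not that of the mean over clustered sites. At the other, 7062 of scaffold 692, large workers had 5.26%, 10.0% and 0% and gynes 12.2%, 54.5% and 32.8%, while small workers ranged from 1.64% to 73.3%. The dispersion of this site was 12.3, against the 1.88 used by the model, and its quasi-binomial adjusted p was 0.0439.

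Small workers and large workers differed at 7 clustered sites (0.412%, against 0.874% of all tested sites), all higher in small workers (background 0.857% higher and 0.0175% lower). Apart from 319851 of scaffold 344, those named by size were 172424 of scaffold 280, 432400 beside the gene tos, 709166 of scaffold 21 and 495881 of scaffold 569. At 172424 of scaffold 280, small workers had 36.4%, 39.3% and 51.4%, large workers 25.0%, 14.6% and 18.6% and gynes 16.8%, 20.7% and 21.6% (quasi-binomial adjusted p = 0.029 for small against large workers), so large workers overlapped with gynes. Position 432400, plus strand, lay 4 bases from a coding site of tos, annotated as Exonuclease 1, and had 22.7%, 32.3% and 33.7% in small workers and 14.4%, 14.5% and 7.34% in large workers. Of the 7 sites called between small and large workers, 6 had a dispersion of their own above the one used by the model. For large workers against gynes and for small against large workers, the block and limma called 0 clustered sites (block 118 and 109 unadjusted, limma 161 and 126), and the counts fell to between 0 and 1 and to 0 when any 1 library was left out.

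Nearly complete editing was found at a few sites. The highest mean was 98.3% at 172364 of scaffold 280, with 100%, 100% and 100% in small workers, 100%, 92.3% and 100% in large workers and 96.6%, 95.5% and 100% in gynes. Positions 4105546 of scaffold 7, 48552 of scaffold 424 and 128713 of scaffold 191 were likewise above 90% in all 3 caste means. Position 320040 of scaffold 344, minus strand, had 100%, 96.6% and 96.9% in small workers, 94.0%, 97.1% and 92.3% in large workers, and 83.4%, 85.6% and 82.7% in gynes (quasi-binomial adjusted p = 4.97e-07 for small workers against gynes). Gynes lay below all 6 worker libraries at that site.

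Neighbouring sites share reads, so clusters were also tested as units, by the mean level over their tested A-to-G sites (limma, 1007 clusters of the whole table, 399 with a clustered site without annotation). Between small workers and gynes 26 of the 399 were called (6.52%, against 6.85% of all clusters), all 26 higher in small workers and without overlap, with a median difference of 11.6 points and limma adjusted p between 0.0317 and 0.0494. An unadjusted p under 0.05 was reached by 108 of the 399. Among the 26, those on scaffolds 614 (from 223302), 158 (from 113360) and 508 (from 250761) had 1 tested site each. In the summed reads of all their sites, small workers and gynes overlapped on scaffolds 158 and 508 and not on 614. Small workers were above gynes in 81.0% of the 399 clusters, against 84.9% of all. Between large workers and gynes 1 cluster was called (0.251%, against 0.199%), and between small and large workers 0 (against 0%, 43 unadjusted). The limma F test among the 3 castes called 0 clusters with clustered sites without annotation (76 unadjusted), against 0.0993% of all.

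The 26 calls depend on the libraries and on the model. With colony as a replicate block, or relative to each library's mean over clusters, 0 were called. Leaving out small workers of colony A, B or C, or gynes of colony C, also left 0. Without gynes of colony B 1 cluster was called, which was not among the 26, and without gynes of colony A 5 were called, 3 of them among the 26. Without large workers of colonies A, B and C, 13, 25 and 10 were called, of which 13, 20 and 10 were among the 26.

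The clusters named next were chosen from the 26 after their values were seen. The largest difference over tested sites was on scaffold 166, minus strand (94694 to 94717, 5 sites, 2 tested), 2890 bases downstream of the 3' UTR site of Mitogen-activated protein kinase-binding protein 1. It had 18.1%, 27.1% and 30.7% in small workers, 16.3%, 31.7% and 19.1% in large workers and 5.56%, 1.92% and 0% in gynes (limma adjusted p = 0.0326 for small workers against gynes). Both worker castes lay above gynes. They did so too in the summed reads of all 5 sites, with 22.7%, 31.9% and 34.7% in small workers, 31.3%, 37.4% and 20% in large workers and 16.5%, 16.5% and 10.9% in gynes.

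A cluster of 5 tested sites on scaffold 751, plus strand (1276041 to 1276085), lay 1758 bases downstream of a 3' UTR site of n-syb, annotated as Synaptobrevin, a membrane protein of synaptic vesicles that takes part in transmitter release. It had 28.4%, 30.2% and 35.0% in small workers, 30.1%, 27.4% and 18.9% in large workers and 14.9%, 19.0% and 17.8% in gynes (limma adjusted p = 0.0466). Small workers and gynes did not overlap, and large workers overlapped with both.

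On scaffold 750, minus strand (395197 to 395199, 3 sites), 1799 bases downstream of a coding site of Tor, a kinase that couples growth to nutrients, levels were 32.3%, 19.4% and 20.9% in small workers, 15.1%, 11.6% and 16.1% in large workers and 11.8%, 5.93% and 6.87% in gynes (limma adjusted p = 0.0352). Small workers stood above both other castes.

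The deepest called cluster was on scaffold 21, plus strand (709150 to 709166, 6 sites, median of 569 reads), with 42.4%, 43.9% and 44.5% in small workers, 41.3%, 36.5% and 37.1% in large workers and 30.04%, 31.3% and 31.4% in gynes (limma adjusted p = 0.0326). The 3 castes were apart, and replicates lay close together. Its nearest genic site was 524109 bases away. The cluster called between large workers and gynes, on scaffold 158 (113360 to 113398), had 1 tested site, at 15.6%, 12.5% and 35.3% in large workers and 0% in the 3 gyne libraries. Summed over all 4 sites, it had 9.09%, 5.17% and 8.70% in large workers and 0%, 14.6% and 7.14% in gynes, which overlapped.

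**Figure D3:**
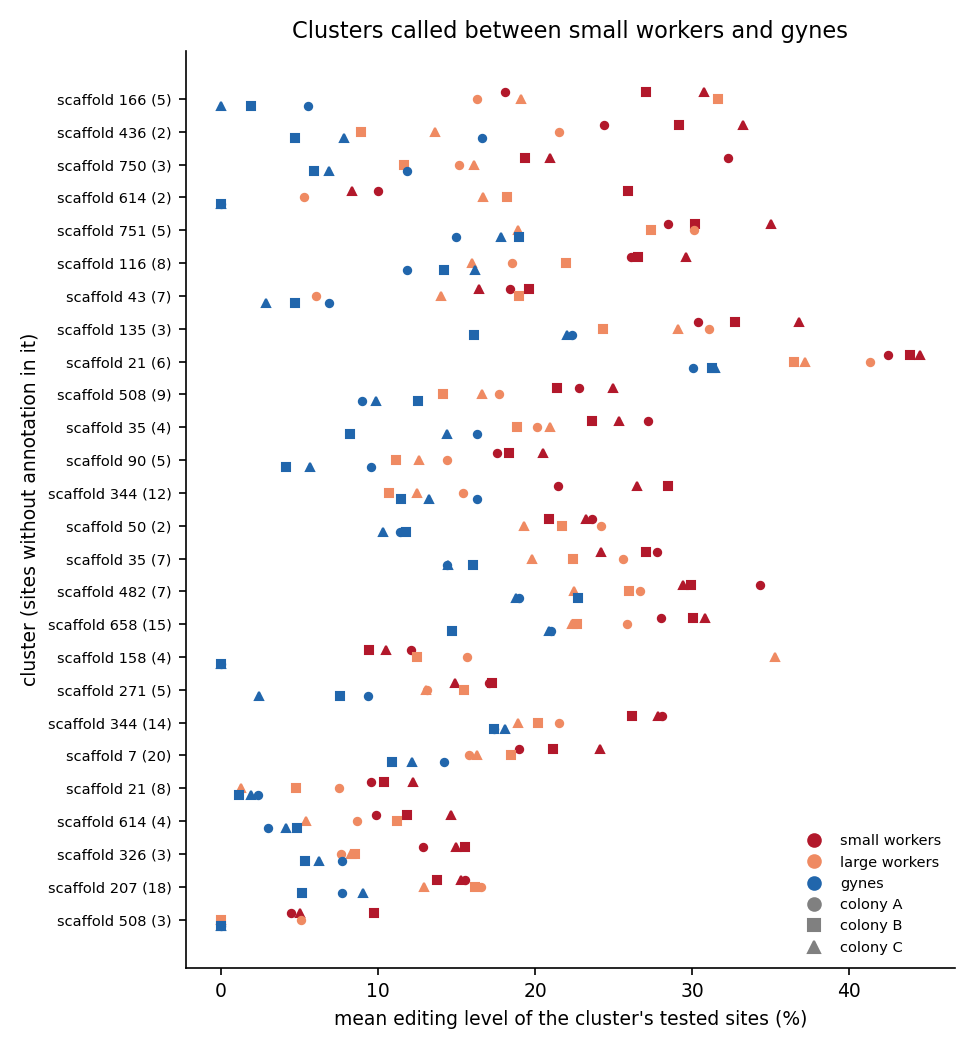
Mean editing level of a cluster's tested A-to-G sites (x axis, percent) for the 26 clusters called between small workers and gynes (y axis, scaffold with the number of sites without annotation in parentheses, largest difference at the top). Each point is 1 library, coloured by caste and shaped by colony. The small worker points lie right of the gyne points in every row, and the median difference is 11.6 points.

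The largest clusters did not share 1 caste pattern. The cluster of 76 sites (scaffold 692, minus strand, 6560 to 7285, 28 tested) had 9.02%, 20.5% and 15.8% in small workers of colonies A, B and C, 9.19%, 18.0% and 8.65% in large workers and 10.0%, 15.7% and 9.43% in gynes. Colony B was highest in each caste, and the castes overlapped. It lay 7833 bases downstream of a 3' UTR site of CG4733, annotated as a regulatory subunit of protein phosphatase 2A.

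All 37 sites were tested in the next largest (scaffold 211, minus strand, 203352 to 203518), at 16.4%, 16.8% and 16.4% in small workers, 15.4%, 15.8% and 15.1% in large workers and 16.5%, 16.0% and 16.0% in gynes. The means of small workers and gynes differed by 0.379 points, against 4.11 over all clustered sites, although single sites of the cluster ranged from 1.82% to 79.2%. The 31 sites of scaffold 70, plus strand (680597 to 680754), averaged 24.0% ± 0.607 in small workers, 26.3% ± 3.32 in large workers and 22.3% ± 1.95 in gynes (SD, n = 3 each). None of these 3 clusters was called, with limma adjusted p between 0.579 and 0.899 for small workers against gynes.

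**Figure D4:**
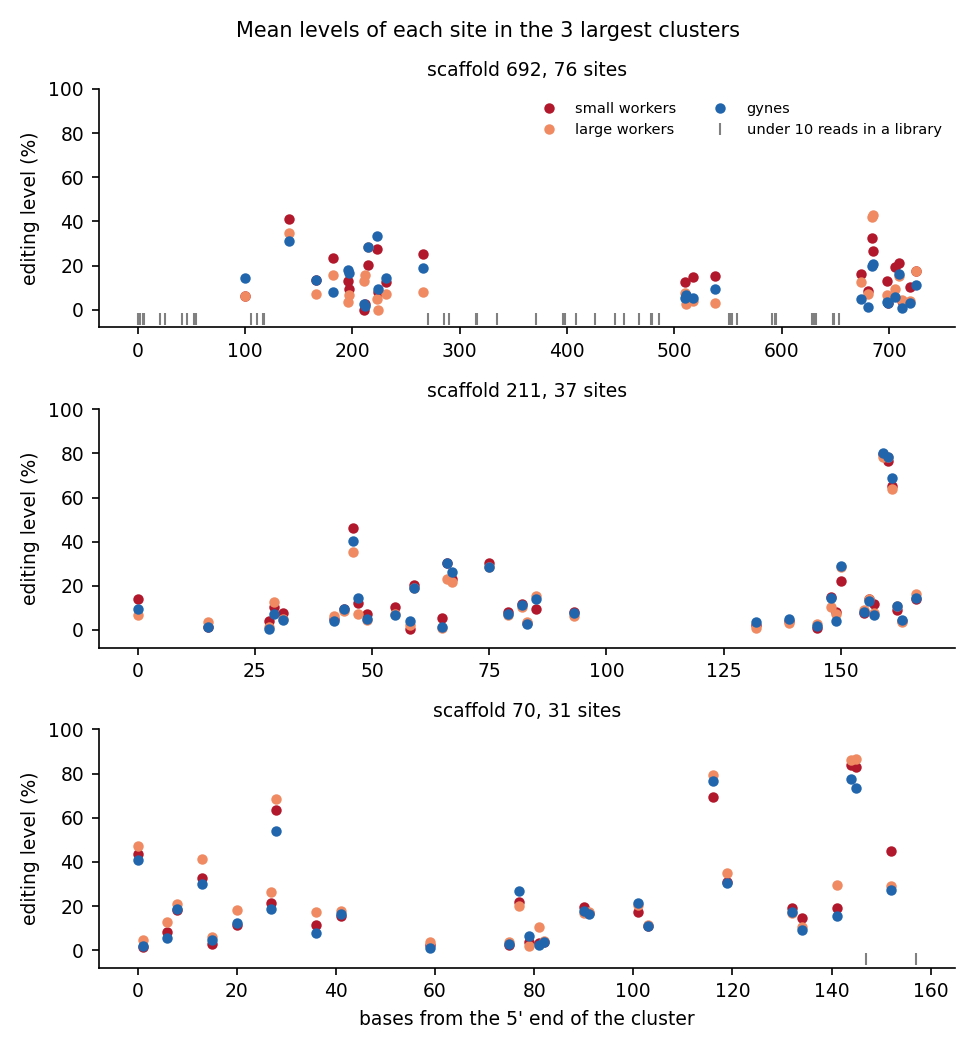
Mean editing level of each tested site (y axis, percent) by its distance from the 5' end of the cluster (x axis, bases) in the 3 clusters with the most sites, coloured by caste. Grey ticks below 0 mark sites under 10 reads in a library. Within a cluster single sites range widely, from 1.82% to 79.2% on scaffold 211. At some sites the mean of small workers stands off, as 152 bases into the cluster of scaffold 70. There it was 45.0% in small workers, 29.0% in large workers and 27.5% in gynes, at 11 reads in the lowest library. This site is an example picked after the values were seen, and the spread of its libraries is not drawn.

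A pair of large clusters lay on scaffold 280, plus strand, downstream of a 3' UTR site of aralar1, a mitochondrial carrier of aspartate and glutamate. The nearer (169943 to 170325, 29 sites, 14 tested, 2111 bases from it) averaged 19.6% ± 3.88 in small workers, 19.7% ± 4.51 in large workers and 25.8% ± 4.37 in gynes. The farther (172194 to 172431, 21 sites, 6 tested, 4362 bases) averaged 42.4% ± 8.78 in small workers, 27.2% ± 5.09 in large workers and 25.7% ± 2.63 in gynes (SD, n = 3 each). Small workers minus gynes was -6.25 points in the nearer and 16.8 in the farther, and neither was called (limma adjusted p = 0.258 and 0.0653). Over its tested sites the nearer had 20.4%, 15.4% and 23.0% in small workers and 21.2%, 26.4% and 29.9% in gynes, which overlapped. Over the summed reads of all 29 sites the nearer had 24.2%, 16.8% and 22.2% in small workers and 18.3%, 21.5% and 23.8% in gynes, which overlapped too. The farther had 41.1%, 31.5% and 40.2% in small workers and 29.3%, 28.3% and 22.6% in gynes over the summed reads of all 21 sites, without overlap.

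Of the other 3 of the 8 largest, the cluster of 20 sites on scaffold 7, minus strand (4103592 to 4103779), was called, with 21.4% ± 2.58 in small workers, 16.8% ± 1.4 in large workers and 12.4% ± 1.66 in gynes (SD, n = 3 each, limma adjusted p = 0.0459 for small workers against gynes). The 22 sites of scaffold 457, minus strand (172842 to 172951), had 1 tested site. The 22 sites of scaffold 83, plus strand (112412 to 112650), had none, and their summed reads gave 23.9%, 27.9% and 20.1% in small workers, 27.6%, 26.6% and 18.3% in large workers and 23.6%, 21.4% and 21.5% in gynes. Those castes overlapped.

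Most clustered sites lay far from any edited site in a gene. Measured to the nearest genic A-to-G site on the same scaffold and strand, 865 (16.6%) had none, 2690 (51.5%) were over 20000 bases away, and the median over the sites that had one was 38131 bases, against 48509.5 for isolated sites. Within 5000 bases lay 873 clustered sites (16.7%), against 127 isolated sites (9.89%) and 426 clustered TE sites outside genes (16.6%). Only 116 were within 1000 bases.

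Close to edited sites of genes, the clustered sites lay mostly on the downstream side. Of the 873 within 5000 bases, 778 (89.1%) were downstream of the genic site, in 173 of 201 clusters, against 104 of 127 isolated sites (81.9%) and 367 of 426 TE sites (86.2%). Beyond 20000 bases, 1296 were downstream and 1394 upstream. The nearest site was in a 3' UTR for 516 of the 873, and all 516 were downstream of it, while of 285 whose nearest site was intronic 202 were. Sites in annotated parts of the gene itself are not counted on either side, and the length without annotation on each side was not measured. The densest 1000 bases for clustered sites were 2001 to 3000 downstream, with 244 clustered sites (4.67%) against 20 isolated sites (1.56%). For isolated sites they were 3001 to 4000 downstream, with 29 isolated (2.26%) and 180 clustered sites (3.45%). Sites of a cluster fall together, as the 29 on scaffold 280 that start 2111 bases downstream, and clusters were not counted per 1000 bases. From 9001 to 10000 bases downstream 25 clustered sites were found.

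**Figure D5:**
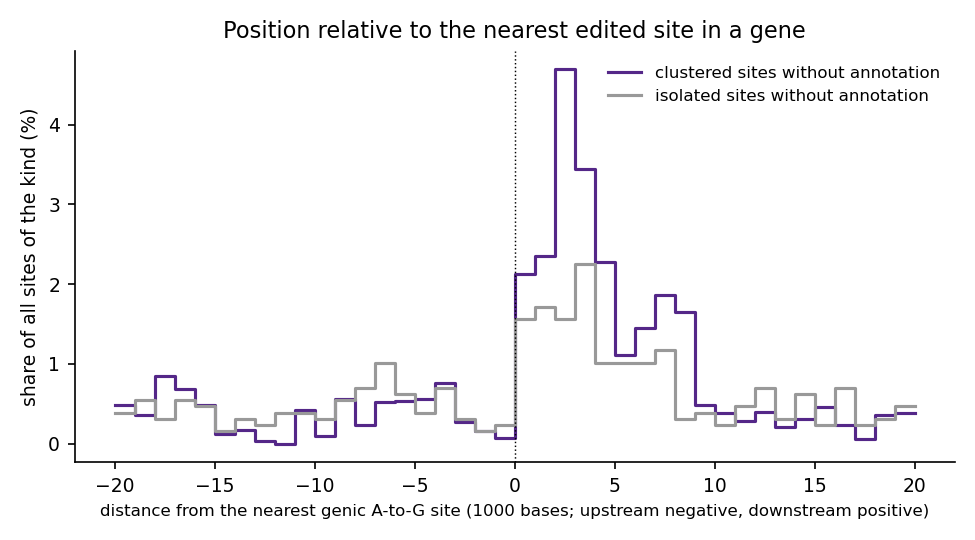
Share of all clustered or isolated sites without annotation (y axis, percent) by distance from the nearest genic A-to-G site on the same strand (x axis, 1000 bases, upstream negative and downstream positive, within 20000 bases). The clustered sites reach 4.67% in 1 class between 2000 and 3000 bases downstream, where the isolated sites are at 1.56%. The isolated sites are highest between 3000 and 4000 bases downstream, at 2.26%.

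The genic A-to-G sites nearest to the 778 downstream sites lay in 88 genes, 42 of which had 1 cluster and 16 at least 3. Genes without an A-to-G site were not considered, so another gene can lie nearer. The 5 genes with the most held 26.0% of the sites. They were led by CG8177 (Aech_01147, scaffold 244), annotated as Anion exchange protein 2, and aralar1 (Aech_16177, scaffold 280). CG8177 had 63 sites in 10 clusters, whose nearest sites lay between 213 and 4335 bases from the genic site. For aralar1 there were 63 sites in 6 clusters, whose nearest sites lay between 1528 and 4362 bases from it. CG14621, a solute carrier of family 35, had 29 sites in 5 clusters, and CG3009, annotated as a phospholipase A2, had 24 in 5. The 17 tested sites near CG8177 averaged 15.4% ± 1.07 in small workers, 11.9% ± 5.19 in large workers and 12.7% ± 1.51 in gynes, and the 20 near aralar1 averaged 26.5% ± 5.34, 21.9% ± 4.62 and 25.8% ± 2.41 in the same order of castes (SD, n = 3 each). Near aralar1 all 3 castes overlapped, and near CG8177 large workers overlapped with both other castes.

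Mean levels were lower upstream than downstream, but the upstream side had only 6 clusters with tested sites, and this difference was not tested. Tested sites up to 5000 bases downstream of a genic site (280 in 60 clusters) averaged 19.2% ± 0.829 in small workers, 17.4% ± 1.18 in large workers and 14.9% ± 1.24 in gynes, against 7.30% ± 1.14, 9.74% ± 1.03 and 9.06% ± 0.897 for the 35 sites in 6 clusters on the upstream side (SD, n = 3 each). Sites farther away (1382 in 331 clusters) averaged 17.2%, 14.9% and 13.0%. Within 1000 bases of a genic site, 44 sites in 11 clusters averaged 10.97%, against 15.3% for the 1653 others, a difference of -4.37 points that was below 0 in 9 of 9 libraries (exact two-sided sign-flip test, p = 0.00390625, and 0.25 over the 3 colonies). With the median over sites in place of the mean it was -0.966 points (exact sign-flip p = 0.0273). With the limit at 5000 bases it turned to 1.24 points in the other direction (16.2% against 15.0%, exact sign-flip p = 0.00390625), so no single direction with distance was found. The 11 clusters within 1000 bases were the same in each library, and the sign-flip p does not cover the spread among clusters.

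The clusters of at least 4 sites that lay farthest from a genic site included a pair on scaffold 50, plus strand. The first (621819 to 621895, 10 sites) averaged 6.19% ± 1.89 in small workers, 6.06% ± 0.266 in large workers and 5.02% ± 1.08 in gynes, and the other (621981 to 622017, 4 sites) averaged 12.3% ± 1.6, 12.4% ± 0.676 and 15.4% ± 3.55 in the same order (SD, n = 3 each). The castes overlapped in both. A cluster of 4 sites on scaffold 585 (2628325 to 2628343) averaged 2.01% ± 1.85 in small workers, 5.43% ± 1.82 in large workers and 1.34% ± 0.85 in gynes, and the remaining 2, on scaffold 21, had no tested site.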

How the data were processed

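Per the labels' protocols, RNA libraries were strand-specific, made from polyadenylated RNA of heads and sequenced as paired reads of 90 bases. BWA 0.5.9-r16 is named in the submitters' processing notes. How the authors chose sites is not given in the sources used here. Their deposited table gives, per the file headers, the counts of DNA and RNA reads with each base at each site and library, a mark where a site was called in a library, position in assembly Aech_2.0, annotated element, gene and fly ortholog. Every site had at least 10 DNA reads and 0 edited DNA reads in each library. The lowest RNA level that could be marked is not known, since the authors' rule is not given. The members and lists described here were chosen with earlier results of these data known.

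The level was edited reads divided by all reads. Sites covered by 10 or more RNA reads in every library (5720, of which 1697 clustered sites without annotation) were tested with a quasi-binomial logistic model on caste, with the dispersion moderated by squeezeVar of limma 3.58.1 in R 4.3.3. Its default gave an infinite prior and 1 dispersion of 1.88 for all sites, whose own values reached 86.1. Clusters were tested with limma on the arcsine-square-root of mean levels. Adjustment was by Benjamini-Hochberg over the whole table at 0.05. Exact permutation or sign-flip tests over libraries compared the mean levels. The site and cluster tests were run on simulated data with the same overdispersion setting for all sites and with independent sites. The simulation thus lacks the uneven dispersion and the shared reads of these data, and cannot show how the tests behave under them. Clusters and sites were named by size, by called difference without overlap (8 at most per direction, 1 per cluster), by highest level and by distance from a genic site, and no cluster passed the F test that would have named more.

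Replicate letters mark the colony in the labels, so they pair the libraries. Deviations from the caste means correlated with r from -0.0378 to 0.117 (median 0.0228) within a colony and from -0.0996 to 0.0964 (median -0.0149) between colonies. Each of the 9 pairs of replicates within a caste exceeded sampling noise (chi-square over degrees of freedom of 1.67 to 2.09), so each library counts. Alternatives were other coverage minimums, windows, summaries, models and dispersion settings, the colony block, and leaving out each library. Reads carry no molecular identifiers, so depth bounds counting error only. Tables were made in Python 3.11.15 with SciPy 1.17.1 and pandas 2.3.3, and plots with matplotlib 3.10.9.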

Additional observations from a re-analysis of the deposited data

How the results depend on the processing

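The mean caste differences kept their direction under every alternative run, with small workers minus gynes between 3.32 and 6.34 points. With the replicate block (colony), the clustered minus isolated difference of 8.08 points, the difference by cluster size of 5.83 points and that by distance of -4.37 points had an exact p of 0.25, the smallest 3 colonies allow. By the median over sites these differences were 4.22, 4.05 and -0.966 points. The distance difference turned to 1.24 points at 5000 bases, and the wider gap between small workers and gynes at clustered sites became -0.15 as a log2 ratio, an alternative chosen after seeing the data, as were the depth classes, the set without the largest cluster and the split at 20 sites. Site calls (small workers against gynes 131, large workers against gynes 10, small against large workers 7) became 0, 0 and 0 with the replicate block and with limma, and 26, 3 and 0 relative to each library's shift. Over all 5720 tested sites the setting relative to the shift called 95, 6 and 7. The robust trended dispersion gave 3 for large workers against gynes. Leaving out 1 library gave 14 to 59, 0 to 1 and 0 to 0 calls. Cluster calls of small workers against gynes (26 of 399) became 0 with the block, 0 relative to the library means, 13 on the logit of summed reads, 0 of 610 at a minimum of 5 reads and 49 of 224 at 20 reads, and 0 to 25 without 1 library. Over all clusters the main fit called 69 of 1007, the block 1, the fit relative to the library means 1 and the logit 41. At 5 reads 1 of 1505 was called over all clusters, and at 20 reads 142 of 591. The single call of large workers against gynes became 0 in the same 5 settings, with at least 2 tested sites and with a window of 100 bases, and 0 to 1 without 1 library. The F test among castes called 13 of 224 at 20 reads (47 of 591 over all clusters) and 2 of 376 with a window of 100 bases (11 of 905 over all clusters). Without 1 library the F test called 0 to 4, and small against large workers 0 to 2. The causes were not tested. Depth limits all site results to 32.5% of the clustered sites.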
